A study of Mus musculus with 65 samples.

Results

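The genes described here build, bind or cut the extracellular matrix, the protein and sugar mesh outside cells. Members were taken from the cerebellar RNA table by gene symbol alone, without use of any measured value. The rule took collagen chains (Col, a number, a, a number), laminin chains (Lama, Lamb and Lamc), symbols beginning with Adamts, Fbln, Fbn or Hapln, matrix metalloproteinases (Mmp and a number), and Tnc, Tnr, Tnn, Acan, Bcan, Ncan, Vcan and Hspg2. It found 101 genes of 15469, namely 40 collagens, 11 laminins, 6 fibrillins and fibulins, 11 lecticans, link proteins, tenascins and perlecan, 21 Adamts and Adamtsl genes, and 12 Mmp genes. All 101 had at least 2 reads in every library, and 97 had a mean of at least 1 CPM (reads per 1000000 of the authors' scaled library size).

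The study's title names compensation between the related transcription factors MEF2A and MEF2D. RNA came from the cerebella of female C57BL/6 mice at postnatal day 22, in 6 groups of 4 libraries: MEF2A Control, MEF2A cKO, MEF2D Control, MEF2D cKO, MEF2AD Control and MEF2AD cKO, where cKO is a conditional knockout of the named gene or of both genes. Each line has its own Control group. The labels do not name the driver of the deletion, the cells it reaches or the alleles that Controls carry. RNA titles also carry the word Rotarod, with no treatment named. No label says that each library is a separate animal, so p-values measure the spread between these libraries, which may be technical. H3K27ac (acetylation of lysine 27 on histone H3, a mark of active promoters and enhancers) was read by ChIP-seq in the same 6 genotypes, 3 female libraries each, with 2 input libraries, and MEF2A and MEF2D binding as 1 list of peaks each (203 and 1388 peaks, without scores).

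As background, brain matrix comes in different forms. Basement membranes around vessels and at the brain surface hold laminins, type IV collagens and perlecan, while the space between neurons and glia holds hyaluronan with lecticans, link proteins and tenascins, which are denser in perineuronal nets around some neurons. Fibrillar collagens, FACIT collagens (which sit on fibrils), fibrillins and fibulins are mostly made by connective tissue cells such as meningeal fibroblasts. ADAMTS and MMP enzymes cut these proteins, and several Adamtsl products are matrix proteins that lack the protease part.

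Reads assigned to genes ranged from 9178139 to 23160475 per library. Mef2a checked the labels for MEF2A: it stood at 207 to 232 CPM in MEF2A Control and 76.9 to 97.8 CPM in MEF2A cKO, and at 182 to 193 CPM in MEF2AD Control and 88.4 to 99.2 CPM in MEF2AD cKO. Mef2d did not fall in its knockouts. It stood at 306 to 357 CPM in MEF2D Control and 360 to 387 CPM in MEF2D cKO. In the MEF2AD line it stood at 276 to 316 CPM in Control and 361 to 388 CPM in cKO. By limma it passed as higher in MEF2AD cKO (log2 fold change 0.32 ± 0.08, limma adjusted p = 0.0170). In MEF2D cKO it did not pass (0.19 ± 0.08, limma adjusted p = 0.165). A whole-gene count checks nothing where only a piece of a gene is deleted. The summed CPM of 10 choroid plexus markers ran from 186 to 2810 over the 24 libraries and overlapped between cKO and Control in every line. MEF2AD Control 1 and MEF2AD cKO 4 had the lowest sums of 11 granule neuron markers, 7253 and 7315 CPM, and the highest of 7 oligodendrocyte precursor markers, 426 and 468 CPM, so the calls of members in that line were also made without each of them. No choroid plexus, fibroblast, endothelial, mural, glial or red blood cell marker passed the test in any cKO against Control comparison, while 1 or 2 granule neuron markers did in each line and 1 interneuron and deep nuclei marker fell in MEF2D cKO. In bulk tissue, fewer cells of a type and less RNA per cell cannot be told apart.

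Most matrix genes did not pass the test in any knockout. By limma on log2(CPM + 1), with p adjusted over all 15469 genes and a threshold of 0.05, 3 members passed in MEF2A cKO (2.97% of the 101, against 0.284% of all genes), 7 in MEF2D cKO (6.93%, against 4.93%) and 6 in MEF2AD cKO (5.94%, against 2.42%). Of these, 1 rose and 2 fell in MEF2A cKO (0.155% of all genes rose and 0.129% fell), 5 rose and 2 fell in MEF2D cKO (2.59% and 2.33%), and 5 rose and 1 fell in MEF2AD cKO (1.16% and 1.26%). The cKO and Control libraries did not overlap for 4 members in the MEF2A line (3.96%; 3.72% of all genes), 14 in the MEF2D line (13.9%; 13.6%) and 7 in the MEF2AD line (6.93%; 6.15%), which is close to the share of all genes. Of the 6 calls in MEF2AD cKO, 5 held without MEF2AD Control 1 and without MEF2AD cKO 4 (highest limma adjusted p = 0.00455). These gave log2 fold changes of -1.17 and -1.16 for Col13a1, 0.83 and 0.89 for Col12a1, 1.36 and 1.42 for Adamts17, 0.66 and 0.60 for Mmp17, and 0.75 and 0.87 for Mmp28. The remaining gene, Lamb3, is given with its values. In all, 9 members passed in at least 1 line and 92 passed in none. The single knockouts share no libraries with each other or with the double knockout, so each comparison stands on its own 8 libraries with a spread estimated over all 24. The members' median log2 fold change was 0.01 in MEF2A cKO, -0.04 in MEF2D cKO and -0.01 in MEF2AD cKO, where the medians of all genes were 0.00, 0.00 and 0.00.

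**Figure D1:**
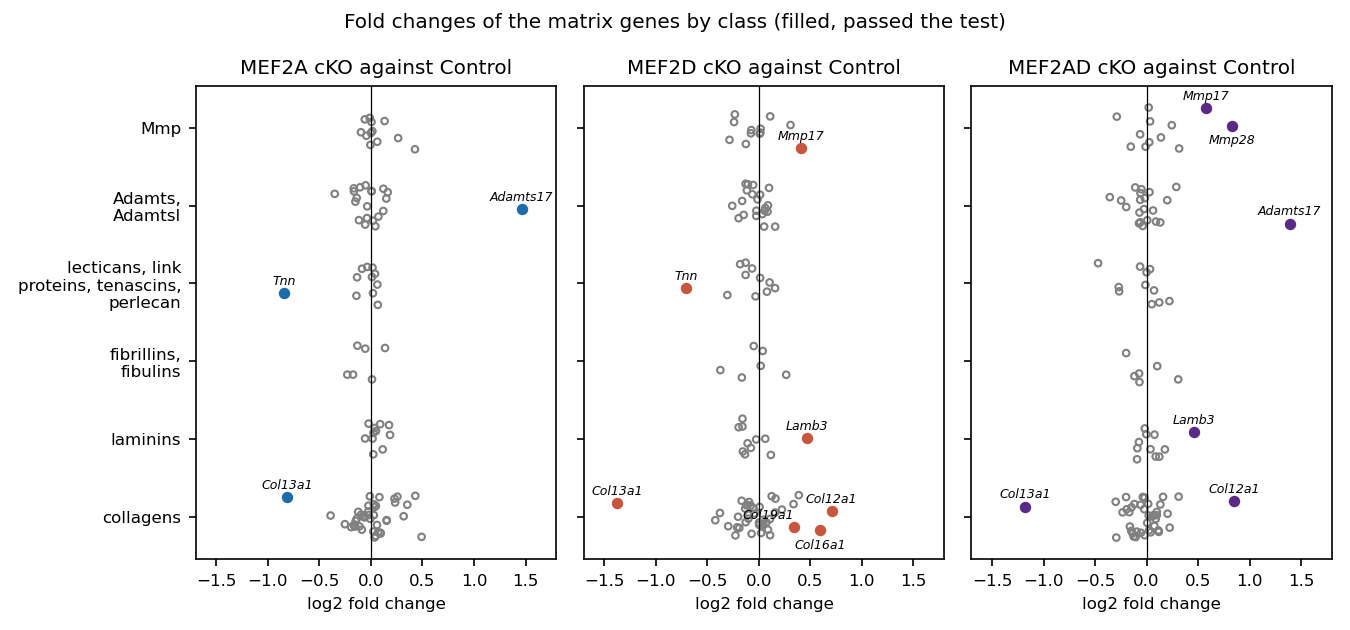
Each point is 1 of the 101 matrix genes, placed by its log2 fold change of cKO over Control on log2(CPM + 1) (horizontal axis) and its class (rows, with random vertical scatter), 1 panel per line. Filled, named points passed the test (3, 7 and 6 genes), and most open points lie close to 0.

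Among the 40 collagens, 1 fell in MEF2A cKO, 3 rose and 1 fell in MEF2D cKO, and 1 rose and 1 fell in MEF2AD cKO. The class medians of the log2 fold change were 0.02, -0.02 and -0.02. Col13a1 (chr10:61838234-61979206, mm10), which encodes collagen XIII, a collagen anchored in the cell membrane and known from the neuromuscular junction, was the only collagen to pass in all 3 lines, and it fell in each.

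Col13a1 stood at 3.72, 5.08, 6.35 and 4.48 CPM in MEF2A Control and at 1.98, 2.04, 3.26 and 2.15 CPM in MEF2A cKO. In the MEF2D line it stood at 5.34, 4.91, 5.31 and 6.69 CPM in Control and at 1.37, 1.39, 1.32 and 2.04 CPM in cKO. The MEF2AD line gave 5.52, 5.81, 6.09 and 4.27 CPM in Control and 1.31, 2.45, 1.94 and 1.7 CPM in cKO. Every cKO library lay below every Control library of its line. Mean CPM in cKO was 0.481, 0.275 and 0.341 of the Control mean. The log2 fold changes were -0.81 ± 0.15 (SE; limma adjusted p = 0.0101), -1.38 ± 0.15 (limma adjusted p = 3.49e-06) and -1.18 ± 0.15 (limma adjusted p = 1.36e-05), and they understate the change of a gene this low because 1 CPM was added. The MEF2A call was lost when MEF2A Control 3, MEF2A cKO 1 or MEF2A cKO 4 was left out (log2 fold change -0.70 to -0.93 over the 8 left-out libraries, highest limma adjusted p = 0.0702) and when only the 2 groups compared were fitted. The differences between the 3 effects did not pass for Col13a1: MEF2AD minus MEF2A was -0.37 ± 0.21 (limma adjusted p = 0.839) and MEF2AD minus MEF2D was 0.20 ± 0.21 (limma adjusted p = 0.930).

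Promoters are shown for 4 members, to set the same window of each side by side. They are the pair that fell (Col13a1 and Tnn) and a pair that rose. Adamts17 rose in MEF2A and MEF2AD cKO, and Mmp28 passed in MEF2AD cKO only. Each runs 5′ to 3′ from 250 bases before to 50 bases after the annotated start, from RefSeq (GRCm38.p6). Capitals mark the 10 bases of a match to the MEF2 box, the sequence MEF2 proteins bind, which reads the same way on both strands.
Col13a1, chr10:61979059-61979358, minus strand: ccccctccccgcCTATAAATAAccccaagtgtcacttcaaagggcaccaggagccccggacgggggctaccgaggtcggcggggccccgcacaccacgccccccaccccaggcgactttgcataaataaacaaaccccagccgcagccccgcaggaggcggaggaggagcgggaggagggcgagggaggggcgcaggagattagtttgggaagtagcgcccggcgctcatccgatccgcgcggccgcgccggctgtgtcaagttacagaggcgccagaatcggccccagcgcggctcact
Tnn, chr1:160153526-160153825, minus strand: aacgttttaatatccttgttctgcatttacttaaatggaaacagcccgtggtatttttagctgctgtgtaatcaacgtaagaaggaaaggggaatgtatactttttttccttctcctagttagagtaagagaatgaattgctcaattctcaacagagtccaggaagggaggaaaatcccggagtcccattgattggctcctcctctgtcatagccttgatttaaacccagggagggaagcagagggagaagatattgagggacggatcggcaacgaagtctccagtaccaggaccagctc
Adamts17, chr7:66839485-66839784, plus strand: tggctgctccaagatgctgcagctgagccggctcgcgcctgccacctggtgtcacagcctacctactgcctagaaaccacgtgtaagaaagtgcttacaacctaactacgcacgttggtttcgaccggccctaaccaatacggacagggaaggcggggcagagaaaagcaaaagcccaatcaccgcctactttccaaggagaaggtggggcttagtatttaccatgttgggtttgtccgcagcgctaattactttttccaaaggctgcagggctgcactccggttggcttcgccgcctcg
Mmp28, chr11:83462991-83463290, minus strand: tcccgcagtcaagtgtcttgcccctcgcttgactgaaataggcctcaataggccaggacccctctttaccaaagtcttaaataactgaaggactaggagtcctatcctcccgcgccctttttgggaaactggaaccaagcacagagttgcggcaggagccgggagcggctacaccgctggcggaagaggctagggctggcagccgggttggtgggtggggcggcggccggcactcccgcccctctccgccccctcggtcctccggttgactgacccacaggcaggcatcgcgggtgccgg

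Of the 71 members with a window in the table (79 windows), Col13a1 was the only one with a MEF2 box, or 1.41% of these members. Of all 32851 windows of this length, 3.19% held one. The match in Col13a1 starts at base 13 of the window and overlaps the letters TATAAA, which 13.6% of all windows hold on one strand or the other. No MEF2A or MEF2D peak lay near this window: the closest MEF2D peak to the Col13a1 gene was 1930018 bp away and the closest MEF2A peak 7615289 bp away. A match is a description of these letters and not a measured binding site.

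The other collagens that passed are FACIT collagens. Col12a1 (chr9:79598987-79721141), which encodes collagen XII, stood at 33.8, 31.6, 33.4 and 34.8 CPM in MEF2D Control and at 58.7, 48.9, 60.3 and 53.5 CPM in MEF2D cKO. MEF2AD libraries held 33.6, 35.3, 27 and 47.6 CPM in Control and at 68.6, 65.5, 63.8 and 58.6 CPM in cKO. The cKO libraries lay above all Controls in both lines, while in the MEF2A line the groups overlapped, at 29.4 to 35.1 CPM in Control and 31.2 to 42.6 CPM in cKO. Col12a1 rose by a log2 fold change of 0.71 ± 0.11 in MEF2D cKO (limma adjusted p = 0.000487) and of 0.85 ± 0.11 in MEF2AD cKO (limma adjusted p = 3.01e-05), and its value in MEF2A cKO was 0.07 ± 0.11 (limma adjusted p = 0.945). Both calls held under all 16 alternatives.

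Col16a1 (chr4:130047817-130099277), which encodes collagen XVI, rose in MEF2D cKO. It stood at 11.9, 11.3, 12.4 and 10.9 CPM in MEF2D Control and at 17.5, 15, 18.9 and 21.4 CPM in MEF2D cKO, with no overlap. The log2 fold change was 0.59 ± 0.10 (limma adjusted p = 0.000801), against 0.23 ± 0.10 in MEF2A cKO (limma adjusted p = 0.572) and 0.13 ± 0.10 in MEF2AD cKO (limma adjusted p = 0.817), where Control libraries reached 15.6 CPM and cKO libraries 16.4 CPM. The MEF2AD effect minus the MEF2D effect was -0.46 ± 0.14 and did not pass (limma adjusted p = 0.347).

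Col19a1 (chr1:24257683-24587922), which encodes collagen XIX, known in mouse from inhibitory synapse formation, passed only narrowly and in MEF2D cKO. It stood at 24.8, 22.7, 23.7 and 24.9 CPM in MEF2D Control and at 32.6, 27.2, 29.8 and 33.2 CPM in MEF2D cKO. Its log2 fold change was 0.34 ± 0.10 (limma adjusted p = 0.0473), and the call was lost when any one of the 8 libraries other than MEF2D cKO 2 was left out (limma adjusted p up to 0.169). In MEF2AD cKO the value was 0.31 ± 0.10 (limma adjusted p = 0.125), with Control at 21.5 to 27.1 CPM and cKO at 26.5 to 31.3 CPM.

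**Figure D2:**
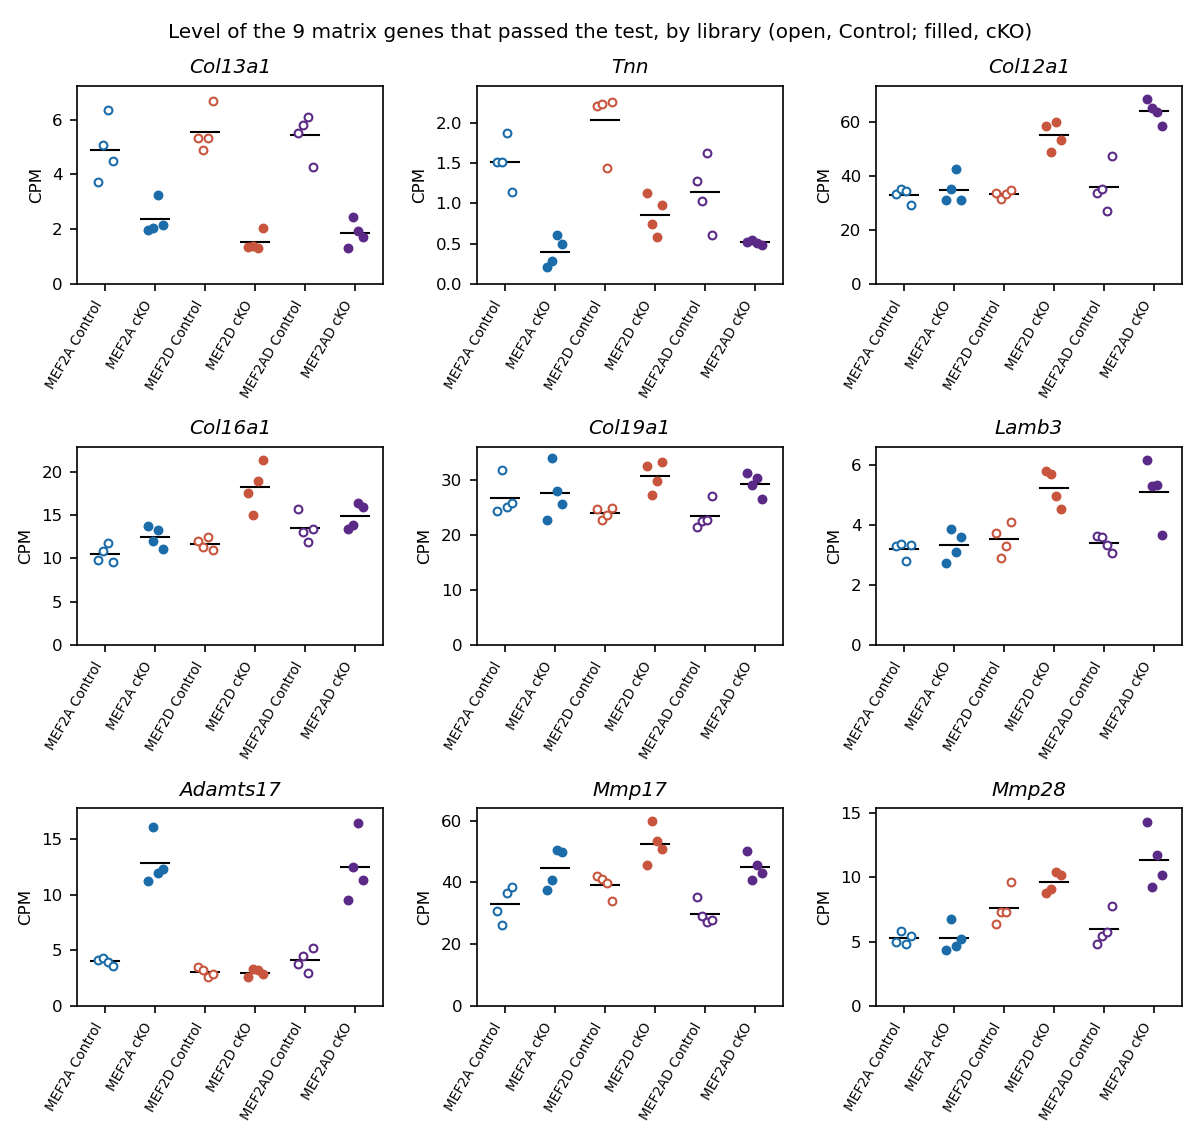
CPM (vertical axes, from 0) of the 9 matrix genes that passed the test in at least 1 line, in the 6 groups of 4 libraries. Points are libraries, bars are group means; Col13a1 is lower in every cKO group, Col12a1 is higher in MEF2D and MEF2AD cKO, and Adamts17 is higher in MEF2A and MEF2AD cKO.

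Of the 11 laminin chains, 1 rose in MEF2D cKO and in MEF2AD cKO and none passed in MEF2A cKO by limma, by edgeR or by DESeq2 (0 also at an unadjusted p under 0.05). That gene was Lamb3 (chr1:193294353-193343878), which encodes the beta3 chain of laminin-332, a laminin best known from the basement membrane of skin. Lamb3 stood at 3.74, 2.90, 3.30 and 4.09 CPM in MEF2D Control and at 5.79, 5.67, 4.96 and 4.52 CPM in MEF2D cKO. The values in the MEF2AD line were 3.61, 3.61, 3.33 and 3.05 CPM in Control and at 6.16, 5.29, 5.31 and 3.65 CPM in cKO. The groups did not overlap in either line, though MEF2AD cKO 4 lay just above the highest Control. The log2 fold changes were 0.47 ± 0.12 (limma adjusted p = 0.0244) and 0.46 ± 0.12 (limma adjusted p = 0.0432), and in MEF2A cKO 0.04 ± 0.12 (limma adjusted p = 0.976). Both calls were fragile: the MEF2D call was lost without MEF2D Control 1, 2 or 3 or MEF2D cKO 1 or 2, and the MEF2AD call without any library of that line but MEF2AD cKO 4 and when only the 2 groups compared were fitted. Without MEF2AD cKO 4 the log2 fold change was 0.58 (limma adjusted p = 0.00332), and without MEF2AD Control 1 it was 0.48 (limma adjusted p = 0.0695).

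The chains with the highest CPM of their class did not pass in any line. Lamc1, the gamma1 chain shared by most laminins, stood at 90.8 ± 8.84 CPM over the 12 Controls (SD, n = 12), Lamb1, the beta1 chain, at 59.0 ± 5.15 CPM and Lamb2, the beta2 chain of vascular basement membranes and synapses, at 47.7 ± 5.45 CPM. Their log2 fold changes lay between -0.20 (Lamb2 in MEF2D cKO, limma adjusted p = 0.103) and 0.09 (Lamb1 in MEF2AD cKO, limma adjusted p = 0.825).

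None of the 6 fibrillins and fibulins passed by limma in any line; at an unadjusted p under 0.05 the counts were 0, 1 and 0 in MEF2A, MEF2D and MEF2AD cKO. Fbln1, a fibulin of basement membranes and elastic fibres, stood at 19.1, 16.4, 19.2 and 14.3 CPM in MEF2D Control and at 12.7, 14.3, 12.6 and 12.4 CPM in MEF2D cKO. Its log2 fold change there was -0.37 ± 0.12 (limma adjusted p = 0.0594), and it passed by DESeq2 (adjusted p = 0.0310) and when only the 2 MEF2D groups were fitted (limma adjusted p = 0.0340). Fbn1, the main protein of microfibrils, stood at 16.4 ± 3.71 CPM over the 12 Controls and Fbln5, which helps assemble elastic fibres, at 8.84 ± 2.09 CPM.

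Of the 11 lecticans, link proteins, tenascins and perlecan, 1 fell in MEF2A cKO and in MEF2D cKO, and none passed in MEF2AD cKO by limma (1 had an unadjusted p under 0.05; edgeR called Tnn there, adjusted p = 0.0470, and DESeq2 none). Tnn (chr1:160085029-160153692) encodes tenascin-N, also called tenascin-W, of bone and of stem cell niches. Tnn stood at 1.51, 1.51, 1.87 and 1.14 CPM in MEF2A Control and at 0.209, 0.282, 0.601 and 0.502 CPM in MEF2A cKO. In the MEF2D line it stood at 2.20, 2.23, 1.44 and 2.26 CPM in Control and at 1.13, 0.744, 0.579 and 0.975 CPM in cKO. MEF2AD libraries held 1.27, 1.03, 1.62 and 0.611 CPM in Control and at 0.524, 0.549, 0.506 and 0.487 CPM in cKO. No cKO library reached the lowest Control of its line in any of the 3 lines.

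Tnn levels rest on few reads: 12 to 18 per library in MEF2A Control, 2 to 7 in MEF2A cKO, and 6 to 33 in the other groups. Mean CPM in cKO was 0.264, 0.421 and 0.455 of the Control mean. The log2 fold changes were -0.85 ± 0.14 in MEF2A cKO (limma adjusted p = 0.00408), -0.71 ± 0.14 in MEF2D cKO (limma adjusted p = 0.00481) and -0.47 ± 0.14 in MEF2AD cKO (limma adjusted p = 0.101). In the MEF2A line the call did not pass when only its 2 groups were fitted. The MEF2AD effect minus the sum of the single effects was 1.08 ± 0.25 (limma adjusted p = 0.0572). Because 1 CPM was added, a gene this low can fall only a little on this scale, which bears on this difference. By edgeR on reads the difference was 2.02 ± 0.54 and did not pass (edgeR adjusted p = 0.119).

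The genes of this class with the highest CPM did not pass in any line. Bcan, the brain lectican brevican, stood at 176 ± 28.4 CPM over the 12 Controls, Tnr, the tenascin that crosslinks lecticans, at 110 ± 6.78 CPM and Hapln4, a link protein of cerebellar nets, at 107 ± 11.7 CPM. In MEF2A, MEF2D and MEF2AD cKO the log2 fold changes were -0.04, -0.07 and -0.01 for Bcan, -0.14, -0.18 and -0.00 for Tnr, and 0.07, 0.01 and 0.05 for Hapln4, each with an SE of 0.07 to 0.09. The lowest limma adjusted p was 0.196, for Tnr in MEF2D cKO. A p that misses the threshold does not show that levels are equal.

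Of the 21 Adamts and Adamtsl genes, Adamts17 was the 1 that passed, in MEF2A cKO and in MEF2AD cKO. Adamts17 (chr7:66839699-67153171), a secreted protease whose loss in humans causes a syndrome of short stature and lens defects, rose about as much in both. It stood at 4.16, 4.32, 3.95 and 3.62 CPM in MEF2A Control and at 11.3, 16.1, 11.9 and 12.3 CPM in MEF2A cKO. In the MEF2AD line it stood at 3.82, 4.49, 3.01 and 5.22 CPM in Control and at 9.57, 12.5, 16.4 and 11.4 CPM in cKO. In the MEF2D line the groups overlapped, at 2.59 to 3.47 CPM in Control and 2.57 to 3.35 CPM in cKO.

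The mean of Adamts17 in cKO was 3.21 times that in Control in the MEF2A line and 3.02 times in the MEF2AD line. Its log2 fold changes were 1.46 ± 0.14 (limma adjusted p = 7.56e-07), 1.39 ± 0.14 (limma adjusted p = 4.47e-07) and, in MEF2D cKO, -0.02 ± 0.14 (limma adjusted p = 0.957). The effects differed between lines by the test of the difference: MEF2D minus MEF2A was -1.48 ± 0.20 (limma adjusted p = 0.000375) and MEF2AD minus MEF2D was 1.41 ± 0.20 (limma adjusted p = 0.000714). All 4 calls held under every alternative run. Adamts17 ends 77992 bp from Mef2a on chromosome 7, so loss of MEF2A and a change to this stretch of the targeted chromosome cannot be told apart. The other 2 members on chromosome 7 did not pass in either line. Among them, Adamtsl3 lies at chr7:82335399-82614450, far from Mef2a at chr7:67231163-67376456. A change limited to the stretch around Mef2a was not tested.

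The Adamts genes with the highest CPM of their class did not pass. Adamts10, which binds fibrillin, stood at 193 ± 17 CPM over the 12 Controls, Adamts4, an aggrecanase that cuts lecticans, at 84.5 ± 5.65 CPM and Adamts18 at 72.5 ± 13 CPM. Adamts4 was lower in mean in each line, with ratios of cKO to Control of 0.891, 0.902 and 0.908, but its limma adjusted p was 0.644 at the lowest and the MEF2AD cKO libraries ranged from 44.4 to 100 CPM.

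Of the 12 Mmp genes, 1 rose in MEF2D cKO and 2 rose in MEF2AD cKO. Mmp17 (chr5:129584151-129611099), a protease held on the cell surface by a lipid anchor, stood at 42.2, 41.1, 39.9 and 33.9 CPM in MEF2D Control and at 45.8, 59.96, 53.4 and 50.9 CPM in MEF2D cKO. For the MEF2AD line the values were 35.3, 29.3, 27.1 and 27.8 CPM in Control and at 50.2, 40.9, 45.6 and 42.9 CPM in cKO. The groups did not overlap in these lines, whereas in the MEF2A line Control at 30.9, 26.4, 36.6 and 38.5 CPM met cKO at 37.6, 40.8, 50.6 and 49.9 CPM.

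The log2 fold changes of Mmp17 were 0.41 ± 0.11 in MEF2D cKO (limma adjusted p = 0.0355), 0.58 ± 0.11 in MEF2AD cKO (limma adjusted p = 0.00267) and 0.43 ± 0.11 in MEF2A cKO (limma adjusted p = 0.167). Replicate numbers pair the libraries of the MEF2A line, and with the replicate number as a block Mmp17 passed there too (limma adjusted p = 0.00525); in each of the 4 pairs the cKO library was higher. The MEF2D call was lost without any library of that line but MEF2D cKO 1. The 3 effects of Mmp17 differed by 0.17 or less, with an SE of 0.16 (lowest limma adjusted p = 0.911).

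Mmp28 (chr11:83440768-83463040), a secreted protease known as epilysin, rose in MEF2AD cKO. It stood at 4.84, 5.45, 5.77 and 7.77 CPM in MEF2AD Control and at 14.3, 9.24, 11.7 and 10.2 CPM in MEF2AD cKO, with no overlap. In the MEF2D line the libraries overlapped, at 6.34, 7.29, 7.33 and 9.61 CPM in Control and 8.77, 9.11, 10.4 and 10.2 CPM in cKO. The log2 fold changes were 0.83 ± 0.14 in MEF2AD cKO (limma adjusted p = 0.000468), 0.31 ± 0.14 in MEF2D cKO (limma adjusted p = 0.223) and -0.01 ± 0.14 in MEF2A cKO (limma adjusted p = 0.998). Mmp28 overlaps 1700020L24Rik, a protein-coding gene at 1.11 CPM on average, and whether counting used strand is not given in the sources used here.

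Mmp24, a membrane-bound protease of neurons, stood at 329 ± 38.5 CPM over the 12 Controls and Mmp16, another membrane-bound member, at 32.6 ± 4.36 CPM, and neither passed in any line (lowest limma adjusted p = 0.265 for Mmp24 in MEF2D cKO). The genes of highest CPM in each class are named to show their values only: CPM grows with transcript length and no lengths were given, so their order is not one of transcript abundance.

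**Figure D3:**
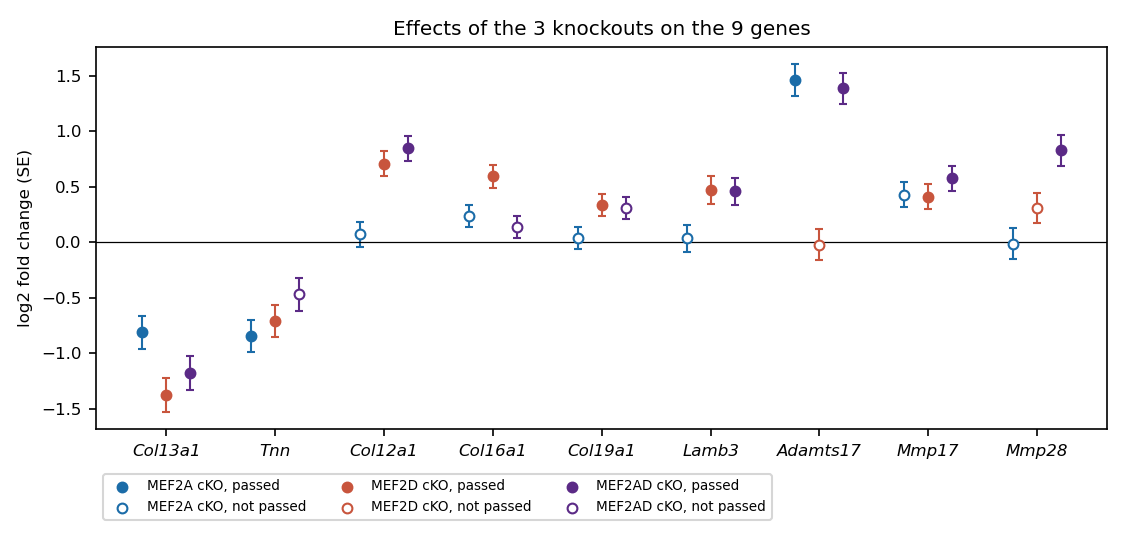
Log2 fold changes of cKO over Control on log2(CPM + 1), with their SE (vertical axis), of the 9 matrix genes that passed in at least 1 line. Filled points passed the test; Col13a1 and Tnn lie below 0 in all 3 knockouts, and Adamts17 lies above 1.3 in MEF2A and MEF2AD cKO and at -0.02 in MEF2D cKO.

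The differences between knockouts were tested directly. MEF2AD minus MEF2A passed for 2 members, both higher (0.549% of all genes passed, 0.233% higher and 0.317% lower), Col12a1 at 0.78 ± 0.16 (limma adjusted p = 0.0195) and Mmp28 at 0.84 ± 0.20 (limma adjusted p = 0.0465). The Col12a1 call was lost without MEF2A cKO 1 or MEF2A cKO 4 (highest limma adjusted p = 0.0521), the Mmp28 call was lost in 12 of the 16 fits that leave out a library and by edgeR, and neither passed when only the 4 groups involved were fitted. MEF2AD minus MEF2D passed for 1 member, Adamts17, which was higher (0.103% of all genes, 0.0194% higher and 0.084% lower). MEF2D minus MEF2A passed for Adamts17 as well, which was lower (0.0388% of all genes, 0.00646% higher and 0.0323% lower).

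No member passed by limma for the MEF2AD effect minus the sum of both single effects (0.356% of all genes passed, 0.142% higher and 0.213% lower), while 8 had an unadjusted p under 0.05, and edgeR called 0. DESeq2 called 0 of those it tested, but gave no adjusted p for 59 of the 101 members, among them the 3 named next. The closest were Tnn, above, Col16a1 at -0.69 ± 0.17 (limma adjusted p = 0.0852) and Col13a1 at 1.01 ± 0.26 (limma adjusted p = 0.0925). Col13a1 fell by 0.81 and 1.38 in the single knockouts and by 1.18 in the double knockout on the log2 scale, so the double effect lay between the single effects. Col12a1 differed from the sum of its single effects by 0.07 ± 0.20 (limma adjusted p = 0.957), where its MEF2A effect was 0.07. Whether Col13a1 and Col12a1 differ from each other in this was not tested.

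The rises and falls were set beside cell type markers, whose part in the results was not tested. The summed CPM of 8 Purkinje cell markers was lower in MEF2A cKO (7086 to 7545) than in MEF2A Control (7612 to 8359) and lower in MEF2D cKO (6959 to 7724) than in MEF2D Control (7762 to 8135), with none of the 8 past the test. In the MEF2AD line it overlapped, at 5664 to 7690 in cKO and 6506 to 8020 in Control. The 12 markers of meningeal and perivascular fibroblasts, a main source of fibrillar collagens, summed to 310 to 386 CPM in MEF2D cKO and 359 to 441 CPM in MEF2D Control, and to 274 to 383 and 312 to 415 CPM in the MEF2AD line. Those sums were lower at both ends in cKO but overlapped Control in both lines, and none of the 12 markers passed. The oligodendrocyte precursor sum was 261 to 283 CPM in MEF2D cKO and 268 to 353 CPM in MEF2D Control.

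A MEF2D peak lay inside 6 of the 101 members, or 5.94%, and the same 6 counted within 5000 bp, against 5.54% of the 14834 genes with a position. No member had a MEF2A peak in its body, within 5000 bp or within 20000 bp, against 0.829% of all genes within 5000 bp. The members with a MEF2D peak included Lamb3 (chr1:193316121-193316565), Mmp24 (chr2:155805101-155805575), Tnr (chr1:159678106-159678600), Col18a1 (chr10:77083011-77083305) and Adamts17 (chr7:67055515-67055874), with peak positions in mm10. Of the 9 members whose RNA passed, Lamb3 and Adamts17 held one, and for Tnn, Col19a1, Mmp17, Col12a1 and Col13a1 the closest MEF2D peak was at least 381096 bp away. Col16a1 lay 10310 bp from its closest MEF2D peak and Mmp28 47293 bp. Within 20000 bp, 11 members had a MEF2D peak (10.9%, against 7.78% of all genes). Whether these sites are exonic or intronic was not resolved, since no exon annotation was used.

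H3K27ac at the Lamb3 site, inside the gene that rose in MEF2D and MEF2AD cKO, was read as RPM (reads per 1000000 of the library total). It stood at 13.8, 15.1 and 13.3 in MEF2AD Control and at 16, 15.9 and 19.9 in MEF2AD cKO. In the MEF2D line it stood at 14.9, 15.8 and 17.6 in Control and at 17.9, 15.8 and 16.3 in cKO, and in the MEF2A line at 15.6, 15.1 and 18.8 and at 13.8, 14.5 and 14.5. On this scale the cKO libraries lay above Control in the MEF2AD line, overlapped in the MEF2D line, and lay below Control in the MEF2A line. The inputs held 0.204 and 0.458.

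The scaling decides how these sites read. With edgeR's TMM factors over the 1372 sites tested, the Lamb3 site was higher in MEF2D cKO by a log2 fold change of 0.42 ± 0.11 (edgeR adjusted p = 0.0024; 34.6% of all sites passed) and in MEF2AD cKO by 0.77 ± 0.11 (edgeR adjusted p = 2.2e-08; 63.1% passed). With library totals, the median of all sites shifted to -0.08, -0.36 and -0.51 in the MEF2A, MEF2D and MEF2AD lines, and the Lamb3 site stood at 0.05 ± 0.10 in MEF2D cKO (edgeR adjusted p = 0.70; 41.8% passed) and 0.25 ± 0.10 in MEF2AD cKO (edgeR adjusted p = 0.026; 57.0% passed). In MEF2A cKO the site stood at -0.14 ± 0.11 (TMM, edgeR adjusted p = 0.82; 0.0729% of sites passed) and -0.21 ± 0.10 (totals, edgeR adjusted p = 0.48). The rise in MEF2AD cKO was called under both scalings.

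Among the 5 member sites with enough reads, 0 passed in MEF2A cKO, 3 in MEF2D cKO and 3 in MEF2AD cKO under TMM, and 0, 1 and 2 under library totals. The Tnr site was higher in MEF2D cKO by 0.46 ± 0.16 (edgeR adjusted p = 0.021) and in MEF2AD cKO by 0.40 ± 0.14 (edgeR adjusted p = 0.012) under TMM, but stood at 0.09 and -0.10 with library totals. The Mmp24 site was higher by 0.34 ± 0.11 (edgeR adjusted p = 0.018) and 0.35 ± 0.11 (edgeR adjusted p = 0.0036) under TMM, and stood at -0.02 and -0.16 with library totals. The Tnr and Mmp24 calls in MEF2AD cKO were lost without H3K27ac library MEF2AD Control 1, and in MEF2D cKO both without MEF2D Control 2, Tnr also without MEF2D cKO 1 and Mmp24 without MEF2D cKO 3. In RPM these groups overlapped: the Mmp24 site stood at 10.6, 11.3 and 13.6 in MEF2AD Control and 9.74, 10.9 and 9.97 in MEF2AD cKO.

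The Col18a1 site, in the gene of collagen XVIII of basement membranes, was lower in RPM in MEF2D and MEF2AD cKO. It stood at 1.44, 1.34 and 1.5 RPM in MEF2AD Control and 1.08, 0.947 and 0.327 in MEF2AD cKO, and at 1.37, 2.09 and 1.30 in MEF2D Control and 1.08, 1.11 and 0.683 in MEF2D cKO. No cKO library reached its Controls in either line. With library totals, 565 of 1371 sites passed as lower in MEF2D cKO and 753 in MEF2AD cKO. The Col18a1 site held 16 to 38 reads per library in the MEF2D line and 4 to 46 in the MEF2AD line. The log2 fold changes were -0.77 ± 0.29 and -0.66 ± 0.27 with library totals (edgeR adjusted p = 0.031 and 0.036) and -0.41 ± 0.29 and -0.15 ± 0.26 under TMM (edgeR adjusted p = 0.26 and 0.64), so the call rests on the scaling. Col18a1 RNA stood at 120 ± 8.31 CPM over the 12 Controls and did not pass (log2 fold change -0.19 ± 0.08 in MEF2D cKO, limma adjusted p = 0.198). The Adamts17 site, at 0 to 0.411 with inputs at 0.183 and 0.204, had too few reads to test.

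**Figure D4:**
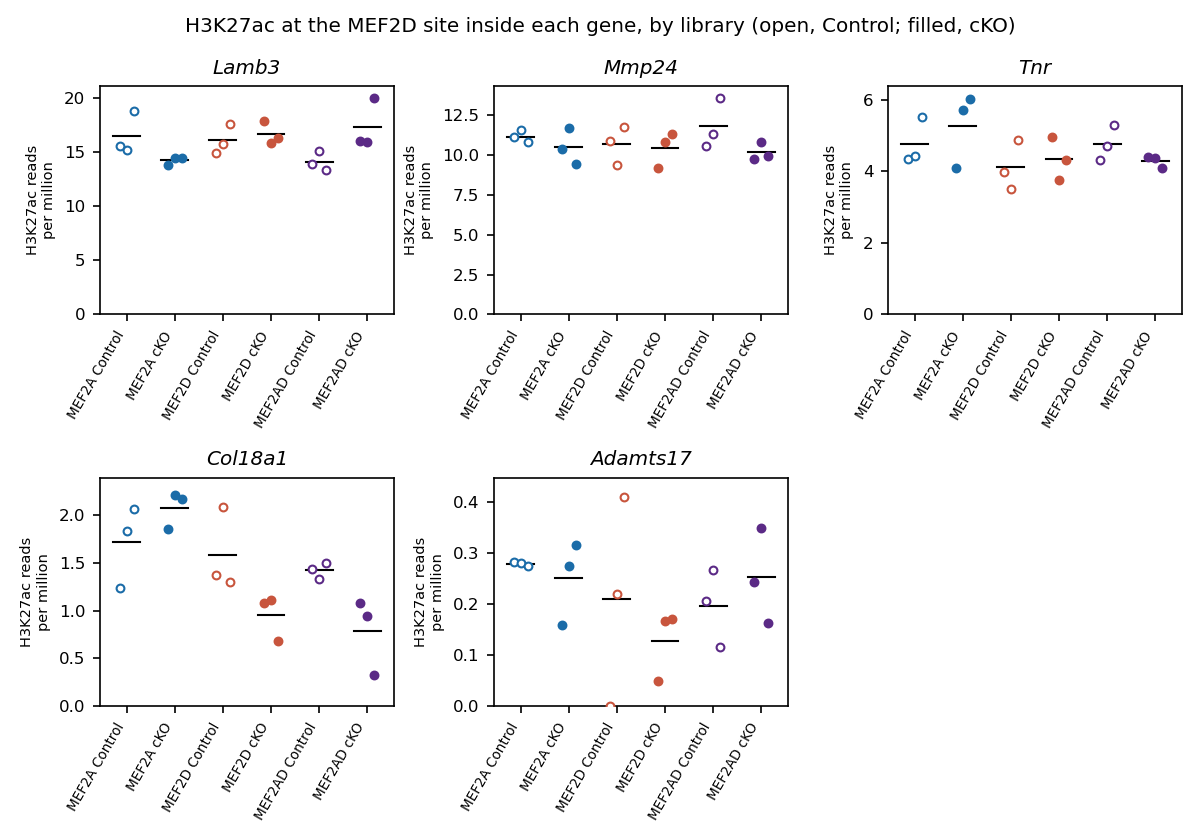
H3K27ac RPM (vertical axes, from 0) at the MEF2D site inside 5 matrix genes, in 6 groups of 3 libraries; points are libraries and bars are means. On this scale Lamb3 is higher in MEF2AD cKO than in its Control, and Col18a1 is lower in MEF2D and MEF2AD cKO. The Col18a1 site did not pass under TMM.

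Within groups, some collagens varied more between libraries than between genotypes. Col8a1, a network-forming collagen, ranged from 2.07 to 13.2 CPM over the 24 libraries, its partner Col8a2 from 2.75 to 10.8 CPM, and Col4a3, a basement membrane collagen, from 0.744 to 4.06 CPM. The library highest in Col8a1 was the one highest in the choroid plexus marker sum in 6 of 6 groups, and the lowest matched the lowest in 5 of 6. Col8a2 gave the same counts, and Col4a3 matched in 5 of 6 groups at both ends. Matching in at least 5 groups at both ends held for 3 of the 101 members (2.97%), for 41 of all 15469 genes (0.265%) and for 8 of the 10 markers. None of the 3 passed in any line (lowest limma adjusted p = 0.786). Col8a1, Col8a2 and Col4a3 were named after their values were seen, because they met this match.

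**Figure D5:**
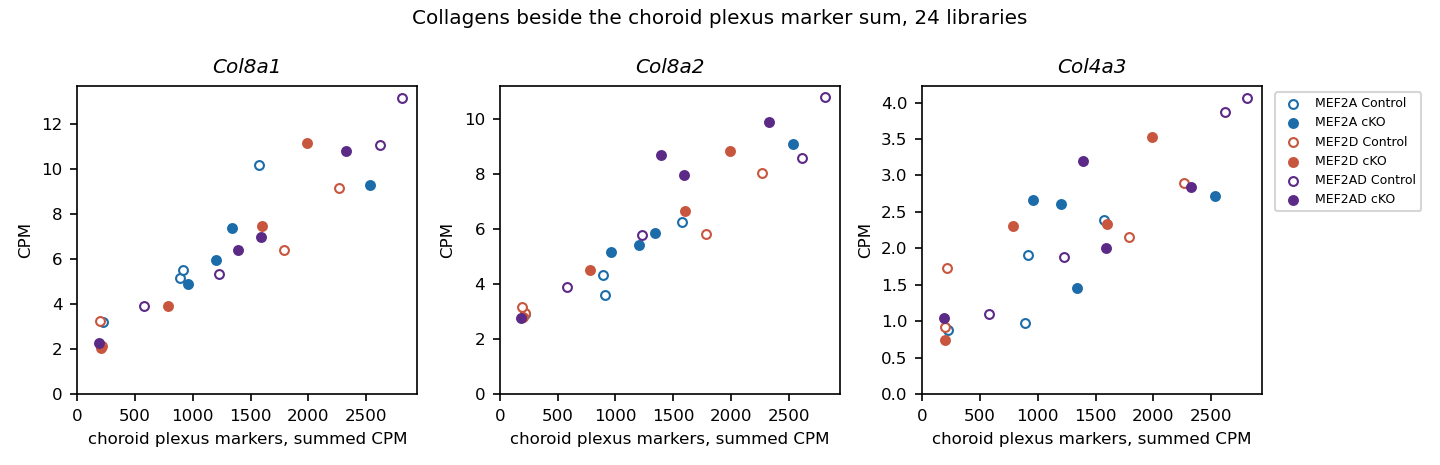
CPM of Col8a1, Col8a2 and Col4a3 (vertical axes) against the summed CPM of 10 choroid plexus markers (horizontal axis) in the 24 RNA libraries, coloured by group. The 5 libraries with sums of 186 to 220 lie at 2.07 to 3.26 CPM of Col8a1, and the library at 2810 lies at 13.2 CPM.

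Other members stood apart in single libraries. Col25a1, a membrane collagen found in neurons, stood at 18.4 CPM in MEF2AD cKO 4 and 7.18 CPM in MEF2AD Control 1, against 1.88 to 5.40 CPM in the other 22 libraries, and Col24a1 stood at 4.2 and 2.72 CPM in those libraries, against 0.172 to 1.87 CPM. Ncan, the lectican neurocan, reached 119 CPM in MEF2AD cKO 4, against 55 to 89.8 CPM elsewhere. These are the libraries named above for low granule neuron markers. Col25a1, Col24a1 and Ncan were named after their values were seen.

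Control levels of some members also differed between lines. The 4 Controls of the MEF2A and MEF2D lines did not overlap for 23 of 101 members (22.8%; 24.5% of all genes), those of the MEF2A and MEF2AD lines for 17 (16.8%; 14.1%) and those of the MEF2D and MEF2AD lines for 6 (5.94%; 21%). Bcan was separate in all 3 pairs, at 142 to 157 CPM in MEF2A Control, 165 to 172 CPM in MEF2D Control and 198 to 225 CPM in MEF2AD Control. Adamtsl4, a matrix protein of microfibrils named after its values were seen, stood at 8.77 to 13.6 CPM in MEF2A Control, 17.5 to 22.3 CPM in MEF2D Control and 14 to 24 CPM in MEF2AD Control. Col1a2 and Col4a1, chains of the main fibrillar and basement membrane collagens, stood at 78.5 ± 11.9 and 82.1 ± 11.4 CPM over the 12 Controls and passed in no knockout by limma on all 24 libraries. Col1a2 had a log2 fold change of -0.21 ± 0.09 in MEF2D cKO (limma adjusted p = 0.191) and passed when only the 2 MEF2D groups were fitted (limma adjusted p = 0.0375). Each knockout was read only against its own Control.

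Genes that work with the members were read from 5 lists with 130 measured genes. By limma, 0 passed in MEF2A cKO, against 0.284% of all genes. There, 9 had an unadjusted p under 0.05, 0 passed by edgeR and by DESeq2, and 2 passed with the replicate number as a block. In MEF2D cKO 4 rose and 3 fell (5.38%, against 4.93% of all genes, of which 2.59% rose and 2.33% fell). In MEF2AD cKO 2 rose and 3 fell (3.85%, against 2.42%, of which 1.16% rose and 1.26% fell). Among 41 matrix glycoproteins, Emilin3, a secreted protein of the emilin family, fell in both: it stood at 8.94, 8.56, 10.1 and 9.69 CPM in MEF2D Control and 2.65, 3.25, 4.30 and 4.88 CPM in MEF2D cKO, and at 8.11, 7.36, 7.55 and 5.55 CPM in MEF2AD Control and 1.51, 1.25, 1.35 and 0.426 CPM in MEF2AD cKO. Its log2 fold changes were -1.13 ± 0.17 (limma adjusted p = 0.000257) and -1.96 ± 0.17 (limma adjusted p = 2.99e-08), with no shift in MEF2A cKO (limma adjusted p = 1). Spon1, or F-spondin, of axon guidance, fell by 0.36 and 0.45 in MEF2D and MEF2AD cKO (limma adjusted p = 0.00724 and 0.000571), and Spock1, the proteoglycan testican-1, fell by 0.24 in MEF2D cKO (limma adjusted p = 0.0126). Ltbp2, a microfibril protein, rose by 0.61 in MEF2D cKO (limma adjusted p = 0.0177). In MEF2A and MEF2AD cKO the log2 fold changes were -0.19 and -0.15 for Spock1 (limma adjusted p = 0.261 and 0.230). For Ltbp2 they were 0.35 and 0.54 (limma adjusted p = 0.582 and 0.0559). Spon1 stood at -0.20 in MEF2A cKO and did not pass (limma adjusted p = 0.476), though every cKO library lay below every Control of that line.

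Hmcn2, or hemicentin-2, rose in MEF2AD cKO. It stood at 1.95, 2.80, 2.19 and 4.94 CPM in MEF2AD Control and 7.99, 11.5, 12.3 and 9.31 CPM in MEF2AD cKO, a log2 fold change of 1.55 ± 0.22 (limma adjusted p = 6.6e-05). Among 24 genes of collagen processing and crosslinking, Tll1, a tolloid-like protease that trims procollagens, was the 1 that passed and fell in MEF2AD cKO. Tll1 stood at 31, 33.1, 33.6 and 28.8 CPM in MEF2AD Control and 15.8, 14.1, 12.6 and 12.5 CPM in MEF2AD cKO (log2 fold change -1.15 ± 0.09, limma adjusted p = 6.63e-09), against -0.17 ± 0.09 in MEF2D cKO (limma adjusted p = 0.322) and -0.01 ± 0.09 in MEF2A cKO (limma adjusted p = 0.998). Its MEF2AD effect minus the MEF2A effect was -1.14 ± 0.13 (limma adjusted p = 1.29e-05). Minus the MEF2D effect it was -0.98 ± 0.13 (limma adjusted p = 0.000375), and minus their sum -0.97 ± 0.16 (limma adjusted p = 0.00355). MEF2AD minus MEF2A also passed for Emilin3 (-1.95 ± 0.24, limma adjusted p = 2.94e-05) and Hmcn2 (1.79 ± 0.31, limma adjusted p = 0.00342). Of the 130 genes 2.31%, 0.769% and 0.769% passed these differences (0.549%, 0.103% and 0.356% of all genes). Among 16 metalloprotease inhibitors and other matrix metalloproteases, Pappa, a protease of IGF-binding proteins, rose in MEF2D cKO (1.35 ± 0.27, limma adjusted p = 0.00396). Its values in MEF2A and MEF2AD cKO were 0.64 ± 0.27 and 0.61 ± 0.27 and did not pass (limma adjusted p = 0.562 and 0.417). Of 26 matrix receptors, Ddr2, a collagen receptor, and Itga4 rose in MEF2D cKO (0.35 and 0.32, limma adjusted p = 0.0360 and 0.0414) and Itgb7 rose in MEF2AD cKO (0.56, limma adjusted p = 0.0439). In MEF2AD cKO Ddr2 stood at 0.34 and Itga4 at 0.14 (limma adjusted p = 0.0770 and 0.736). Itgb7 stood at 0.29 in MEF2D cKO (limma adjusted p = 0.298). No difference between knockouts passed for Spon1, Spock1, Ltbp2, Pappa, Ddr2, Itga4 or Itgb7. The list of other proteoglycans and hyaluronan synthases held no gene that passed in any of these comparisons.

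In the authors' deposited table, 6 members had an adjusted p under 0.05 for MEF2AD cKO against its own Control, 5 higher and 1 lower, among 2.78% of all genes. The authors' deposited table gave log2 fold changes of 1.57 for Adamts17, 0.87 for Mmp28, 0.86 for Col12a1, 0.63 for Lamb3, 0.61 for Mmp17 and -1.47 for Col13a1. These are the 6 that passed here, from the same libraries. A second deposited comparison set MEF2AD cKO beside Controls from every line, and 9 members had an adjusted p under 0.05 there. Among them were Tnn (log2 fold change -1.37, deposited adjusted p = 0.0101), Fbn1 (0.54, deposited adjusted p = 0.0385) and Adamts2 (0.33, deposited adjusted p = 0.0115). Tnn, Fbn1 and Adamts2 did not pass here by limma in MEF2AD cKO against its own Control.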

How the data were processed

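Members and gene lists were chosen with earlier results of these data known. Per the file headers and values, the authors deposited log2 CPM with 0.5 reads added; whole reads were recovered for 100% of values (tolerance 0.05) and divided by the authors' scaled library size to give CPM. The authors' deposited adjusted p-values and log2 fold changes are quoted only where named. H3K27ac was deposited as raw counts per site, and peaks as positions. The tools STAR 2.6, Bowtie2 2.3.4.2 and MACS2 and the build mm10 are named per the submitters' processing notes; no source used here names the counter or its use of strand. Of 15560 rows, 91 repeated identifiers were dropped, and 24 other columns of per-sample values were not used. The main test was limma 3.58.1 (R 4.3.3, limma-trend, log2(CPM + 1), 6 group means, Benjamini-Hochberg), with edgeR 4.0.16 and DESeq2 1.42.0 on recovered reads as alternatives. edgeR's quasi-likelihood test with TMM over sites served H3K27ac. Other alternatives were pseudocounts of 0.5 and 2 CPM, a filter of mean CPM of at least 1, TMM factors, only the groups compared, a replicate block, and each library left out; for sites, library totals, DESeq2, a replicate block, no filter and windows of 0 and 20000 bp. Methods were tested on simulated data. Gene positions came from RefSeq GRCm38.p6 (13653 genes by Entrez identifier, 1181 by symbol, 635 not matched; all 101 members matched). Named genes are members that passed, the 3 of highest Control CPM per class, members with a MEF2 site within 5000 bp, and up to 4 that passed per related list and comparison. Same-numbered cKO and Control libraries deviated together in the MEF2A line (correlations 0.404, 0.503, 0.240 and 0.197), so its numbers pair the libraries, from the data and not the labels. The separate values of 1 member are not reported here.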

Additional observations from a re-analysis of the deposited data

Results flagged for a closer look

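The effect of the knockout differed between lines, by a test of the difference, for 3 members: Adamts17 (MEF2AD minus MEF2D 1.41, MEF2D minus MEF2A -1.48), Col12a1 (MEF2AD minus MEF2A 0.78) and Mmp28 (MEF2AD minus MEF2A 0.84), on the log2 scale. Of the related genes, Tll1, Emilin3 and Hmcn2 also differed, with values given above. Of 162 groups of 4 libraries examined over 27 named members, 12 held a library far from the other 3 by Dixon's criterion, where chance flags about 1 in 20. Col13a1 was 3.26 CPM in MEF2A cKO 3 (others 1.98 to 2.15) and 2.04 CPM in MEF2D cKO 4 (others 1.32 to 1.39), both still below every Control of their line. Tnn was 1.44 CPM in MEF2D Control 3 (others 2.20 to 2.26), and Lamb3 was 2.81 CPM in MEF2A Control 3 (others 3.28 to 3.35). Fbln1 was 11.5 CPM in MEF2A Control 4 (others 14 to 14.3), 14.3 CPM in MEF2D cKO 2 (others 12.4 to 12.7) and 14.7 CPM in MEF2AD cKO 2 (others 11.4 to 11.7). Lamb2 was 36.2 CPM in MEF2A Control 4 (others 42.8 to 43.8), Col4a1 81.9 CPM in MEF2A cKO 2 (others 60.1 to 63.8), Col18a1 112 CPM in MEF2D Control 1 (others 121 to 123), Hapln4 119 CPM in MEF2D Control 1 (others 104 to 106) and Col1a2 70.9 CPM in MEF2AD Control 1 (others 85.4 to 87.9).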

How the results depend on the processing

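Another pseudocount, a filter on mean CPM and TMM factors left every count of members that passed unchanged or within 1.5 times. When only the groups compared were fitted, members called fell to 1 in MEF2A cKO and to 0 for MEF2AD minus MEF2A, where edgeR gave 1. With the replicate number as a block, 11 members passed in MEF2D cKO and 2 for the MEF2AD effect minus the sum of both. The same-numbered correlations were 0.0649 to 0.315 in MEF2D and -0.198 to 0.253 in MEF2AD, against a lowest of 0.197 in MEF2A. In MEF2D only pair 1 lay below that value, so whether the numbers pair its libraries is not settled. The block added Col1a2, Col2a1, Col17a1 and Fbln1 in MEF2D cKO, Adamts18 and Col19a1 in MEF2AD cKO, Adamts18 for MEF2AD minus MEF2A, and Col13a1 and Tnn (limma adjusted p = 0.0139 and 0.0297) for the last difference. In the MEF2A line, whose numbers were taken to pair the libraries, the block gave 4 calls, against 3 in the main fit without pairing. It added Mmp17 and changed no other call there. Leaving out 1 library gave 2 to 3 calls in MEF2A cKO, 4 to 6 in MEF2D cKO, 5 to 7 in MEF2AD cKO, 0 to 2 for MEF2AD minus MEF2A and 0 to 1 for MEF2AD minus the sum. For H3K27ac, leaving out 1 library gave 1 to 3 sites in MEF2D cKO and in MEF2AD cKO; library totals left 1 in MEF2D cKO, and a window of 20000 bp gave 6 in MEF2AD cKO. Library totals turned the Mmp24 site to -0.021 in MEF2D cKO and -0.16 in MEF2AD cKO, and the Tnr site to -0.10 in MEF2AD cKO. The cause of these changes was not tested. No called RNA fold change of a named member changed its sign. Of the related genes, 7 passed in MEF2D cKO, against 16 with only the groups compared and 18 with the block, and 5 in MEF2AD cKO, against 10 by DESeq2, 10 with the block and 3 with only the groups compared. DESeq2 gave no adjusted p for 14 members in MEF2D cKO, Tnn among them, 26 for MEF2AD minus MEF2A, 5 for MEF2AD minus MEF2D and 59 for MEF2AD minus the sum.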
